A study of Homo sapiens with 16 samples.

Results

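Cardiomyocytes store calcium in the sarcoplasmic reticulum and release it at each beat. RNA of the genes that carry out this storage and release was followed in WTC11 hPSC-CMs, cardiomyocytes made from a human induced pluripotent stem cell line. The genes were taken by name: RYR2, ATP2A2, PLN, SLN, CASQ1, CASQ2, TRDN, JPH2, HRC and ASPH, 10 of the 43388 genes in the deposited table. Levels are in TPM, reads per gene length scaled to 1000000 in each library, and all 10 averaged 1 TPM or more over the 16 libraries and were tested.

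The study asked how culture medium affects hPSC-CMs after differentiation, and all cells came from a single differentiation of cardiac progenitors that had been frozen on Day 5 and thawed. The Day 16 RPMI/B27 group (4 libraries) was collected at the start of the medium comparison. The other 3 groups (4 libraries each) were kept until Day 30 in standard RPMI/B27, in RPMI_glcM/B27 or in HPLM/B27. HPLM is human plasma-like medium, whose salts, sugars, amino acids and other small molecules follow human plasma. RPMI_glcM/B27 is an RPMI medium with glucose lowered to 5 mM, the level in HPLM. HPLM/B27 and standard RPMI/B27 therefore differ in glucose as well as in other components. B27 supplement was in every medium, no gene was altered, and each library was a well. The description of the experiment gives 3 wells per medium where the labels give 4 libraries, and all p-values measure the spread between wells of 1 line and 1 differentiation.

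In a working cardiomyocyte, calcium entering through L-type channels opens RYR2, the ryanodine receptor, and calcium leaves the sarcoplasmic reticulum. ATP2A2 encodes SERCA2, the pump that returns calcium to the store, and PLN (phospholamban) and SLN (sarcolipin) are small membrane proteins that hold the pump back. CASQ2, the cardiac calsequestrin, binds calcium inside the store, as does CASQ1, its skeletal muscle counterpart, and HRC, a histidine-rich calcium-binding protein. Triadin (TRDN) and junctin, a product of the ASPH gene, connect calsequestrin with RYR2, and junctophilin 2 (JPH2) holds the store close to the surface membrane.

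Leaving out SLN, which had at most 16 reads in a library, PLN and CASQ2 had the largest ratios of a Day 30 mean to the Day 16 mean. PLN was higher in all 3 Day 30 media, with mean TPM at 1.86 times the Day 16 mean in RPMI/B27, 2.24 times in RPMI_glcM/B27 and 2.56 times in HPLM/B27. CASQ2 stood at 1.71, 1.57 and 2.93 times its Day 16 mean in the same order, of which RPMI/B27 and HPLM/B27 passed the test. CASQ1 was at its highest in HPLM/B27, at 1.99 times its mean in RPMI_glcM/B27. RYR2, ATP2A2, TRDN, JPH2 and ASPH moved less. In part of the media, but not in all, the direction of each against Day 16 depended on how the libraries were scaled.

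The stretches just upstream of PLN, CASQ2 and CASQ1 are printed because these are the members with the clearest differences, and they were chosen after the values had been seen. Each is the 250 bases before the annotated start, 5′ to 3′ on the gene's own strand, from RefSeq on GRCh38.p14. PLN starts at position 118548296 of chromosome 6 on the plus strand, inside CEP85L on the opposite strand, and its window is chr6:118548046-118548295. CASQ2 lies on the minus strand of chromosome 1 with the window chr1:115768715-115768964, and CASQ1 lies on the plus strand of the same chromosome with the window chr1:160190325-160190574. Capitals mark matches to GATAA, to CANNTG or to the MEF2 motif on either strand.
PLN: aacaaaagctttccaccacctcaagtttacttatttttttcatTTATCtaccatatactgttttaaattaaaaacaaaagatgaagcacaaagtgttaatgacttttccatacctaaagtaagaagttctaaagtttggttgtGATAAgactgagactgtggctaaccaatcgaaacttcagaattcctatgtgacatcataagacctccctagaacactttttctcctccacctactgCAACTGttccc
CASQ2: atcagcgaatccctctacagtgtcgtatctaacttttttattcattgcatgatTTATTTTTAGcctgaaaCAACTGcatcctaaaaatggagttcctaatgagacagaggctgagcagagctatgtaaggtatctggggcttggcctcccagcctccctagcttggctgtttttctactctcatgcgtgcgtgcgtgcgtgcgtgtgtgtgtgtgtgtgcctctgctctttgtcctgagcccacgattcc
CASQ1: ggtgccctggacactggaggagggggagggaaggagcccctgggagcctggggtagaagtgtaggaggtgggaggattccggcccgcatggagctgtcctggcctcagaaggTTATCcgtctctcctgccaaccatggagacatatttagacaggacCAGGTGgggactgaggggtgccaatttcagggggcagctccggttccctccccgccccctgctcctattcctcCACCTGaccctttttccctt

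The windows were searched on both strands for TATAAA, for GATAA, for CATTCC, for CANNTG and for the MEF2 and CArG motifs, and 8 of the 10 genes had an entry, with SLN and ASPH named only. The PLN window held GATAA at 207 to 203 bases (as its reverse complement) and at 107 to 103 bases before the start, and the CASQ1 window held it at 138 to 134 bases as its reverse complement. GATAA occurs in 20.4% of 35116 windows of the same length. A MEF2 match lay 197 to 188 bases before the CASQ2 start, and ATP2A2 held 2 overlapping MEF2 matches, a motif found in 2.8% of all windows. CANNTG was present upstream of PLN, CASQ1 and CASQ2, as in 61.8% of all windows. The windows differed in base composition, with GC at 34.8% for PLN, 48.0% for CASQ2 and 62.0% for CASQ1 against a median of 58.0%. These matches describe letters, not binding.

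Whole reads could be recovered from the steps in the TPM values, and the libraries held between 7744784 and 16183695 reads. The mitochondrial ribosomal RNA RNR2 took 41.0% to 48.3% of all TPM and the small nuclear RNA RN7SK 8.76% to 13.8%. The other mitochondrial ribosomal RNA, RNR1, stood at 14387 and 29276 TPM in Day 30 RPMI/B27 replicates 3 and 4 and between 49.5 and 6806 TPM in the other 14 libraries. Among those 14 it was 3793 TPM in Day 16 replicate 4 and 4872 and 6806 TPM in RPMI_glcM/B27 replicates 3 and 4. In HPLM/B27 replicates 1 and 4 it was 6359 and 5889 TPM, and the rest held at most 1545 TPM. Only the RPMI/B27 pair is called high-RNR1 below. Over all 16122 genes tested, the median log2 difference against Day 16 was -0.28 for RPMI/B27, -0.22 for RPMI_glcM/B27 and -0.29 for HPLM/B27. Each value was therefore also divided by a median-of-ratios factor, between 0.722 and 1.32 per library, which sets the typical gene level between libraries. Values as deposited come first below, and values so divided are called rescaled.

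The cells carried cardiomyocyte RNA in every library. All 10 cardiomyocyte markers (such as TNNT2, MYH6 and ACTN2) were detected, with a summed level of 14965 to 19899 TPM. The 12 fibroblast markers summed to 551 to 933 TPM on Day 16, 231 to 443 TPM in RPMI/B27, 180 to 245 TPM in RPMI_glcM/B27 and 235 to 284 TPM in HPLM/B27. Day 16 first and then in that order of media, FN1 averaged 399, 110, 70.4 and 104 TPM and POSTN 32.1, 45.5, 44.7 and 27.8 TPM. Of the 8 fibroblast markers tested, 0 were called higher than on Day 16, and 5, 7 and 6 lower. The hepatic endoderm list summed to 485 to 861 TPM on Day 16 and, in the same order of media, to 332 to 587, 96.0 to 221 and 73.3 to 215 TPM. Its members did not all fall. AFP averaged 441, 138, 55.0 and 57.0 TPM in these groups, and ALB 21.2, 242, 78.1 and 49.9 TPM. Of the 12 tested, 1 was called higher than on Day 16 in each medium, and 9, 11 and 11 lower. Of 12 skeletal muscle markers 3 passed the filter, and the list summed to 133 to 187 TPM on Day 16 and, in the same order, to 96.3 to 142, 266 to 324 and 286 to 436 TPM. Among the regulators MYOD1, MYF5 and MYF6 were at 0 in all groups and MYOG averaged 0.757, 1.71, 1.26 and 1.39 TPM (1 to 20 reads), Day 16 first and then Day 30 in the order of media above. TNNT3, a fast skeletal troponin, averaged 0.163, 1.86, 1.59 and 1.19 TPM in the same groups (0 to 30 reads), and CKM, the muscle creatine kinase that heart also expresses, 149, 116, 303 and 341 TPM. The part of these markers in the results below was not tested, and in bulk RNA fewer cells of a type and less RNA per cell cannot be told apart.

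**Figure D1:**
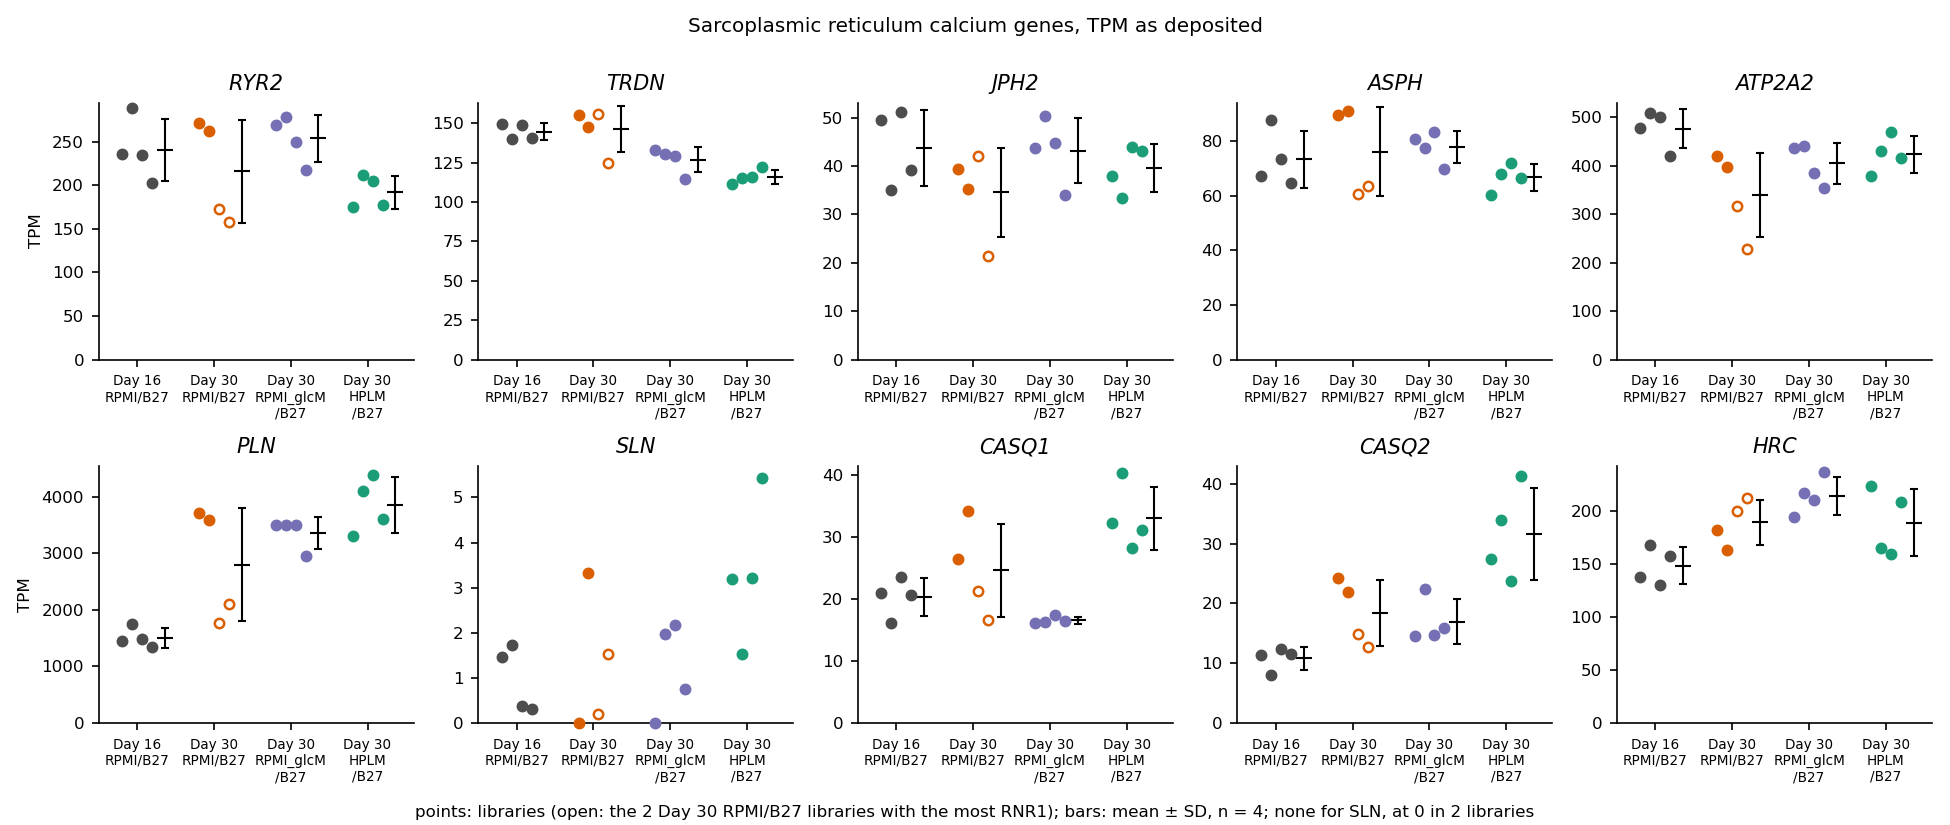
TPM as deposited of the 10 genes (vertical axes, linear, from 0) in the 16 libraries, grouped by day and medium, with mean ± SD (n = 4) beside the points except for SLN. PLN sits at 1339 to 1743 TPM on Day 16 and at 1774 to 4390 TPM in the Day 30 media, and the open points are Day 30 RPMI/B27 replicates 3 and 4, which carry the most RNR1.

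Per length, the members held nearly the same order in every group. PLN was highest, with means of 1503 to 3851 TPM, followed by ATP2A2 (341 to 477 TPM) and RYR2 (192 to 254 TPM). HRC (148 to 214 TPM), TRDN (116 to 146 TPM), ASPH (66.7 to 77.9 TPM) and JPH2 (34.6 to 43.7 TPM) came next, then CASQ1 and CASQ2 (10.8 to 33.0 TPM) and SLN last. Neighbours in this order were separated in all libraries of a group in most cases. The exceptions were HRC and TRDN on Day 16, ATP2A2 and RYR2 in RPMI/B27, RYR2 and HRC in all 3 Day 30 media, JPH2 and CASQ1 in RPMI/B27 and HPLM/B27, and the calsequestrins in all 3 Day 30 media. On Day 16 CASQ1 lay above CASQ2 in every library.

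To see what 2 weeks of further culture changed, each Day 30 medium was compared with Day 16. These comparisons share the Day 16 libraries. As deposited, 3 of the 10 members passed the test in RPMI/B27 (PLN and CASQ2 higher, ATP2A2 lower), where 19.9% of all tested genes did, 2.08% higher and 17.8% lower. In RPMI_glcM/B27 2 passed (PLN and HRC, higher) against 21.1% of all genes, 3.34% higher and 17.8% lower, and in HPLM/B27 4 passed (PLN, CASQ1 and CASQ2 higher, TRDN lower) against 25.4%, 3% higher and 22.4% lower. After rescaling, 5 members passed in each comparison and all of these were higher. PLN, CASQ2, HRC and ASPH were among them each time, joined by CASQ1 in RPMI/B27 and HPLM/B27 and by RYR2 in RPMI_glcM/B27. The rescaled shares over all genes were 17.5%, 27.5% and 25.3%, with 8.62%, 13.4% and 12.9% higher and 8.91%, 14.2% and 12.5% lower. limma-voom on the recovered reads called 7, 5 and 5 members, against 21.7%, 29.8% and 29.6% of all genes. Libraries did not overlap for 3, 4 and 4 members as deposited, beside 17.9%, 30.2% and 35.9% of all genes, and for 4, 5 and 7 rescaled, beside 19.4%, 30.1% and 27.9%. The median log2 difference of the 10 members was 0.03, 0.09 and 0.11 as deposited against the all-gene medians given above, and 0.36, 0.29 and 0.44 rescaled.

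To see what the medium changed, the Day 30 groups were compared with each other. As deposited, no member passed the limma test in any of the 3 comparisons, where 2.2% (RPMI_glcM/B27 against RPMI/B27), 2.41% (HPLM/B27 against RPMI/B27) and 0.0682% (HPLM/B27 against RPMI_glcM/B27) of all genes did. The higher share was 1.36%, 1.51% and 0.0496% and the lower share 0.837%, 0.893% and 0.0186%. At an unadjusted p under 0.05 there were 2, 6 and 4 members, but the share of all genes at that limit is not given here, so these counts have no background. The median log2 difference of the members was 0.14, 0.29 and -0.03, beside 0.05, -0.02 and -0.06 over all genes. Rescaled, RYR2 was higher and CASQ1 lower in RPMI_glcM/B27 than in RPMI/B27 (12.1% of all genes passed, 6.17% higher and 5.89% lower). PLN, ATP2A2, CASQ1 and CASQ2 were higher in HPLM/B27 than in RPMI/B27, where 12.9% of all genes passed, 7.05% higher and 5.87% lower. CASQ1 and CASQ2 were higher and RYR2 lower in HPLM/B27 than in RPMI_glcM/B27, where 1.63% passed, 0.999% higher and 0.626% lower. limma-voom called 4, 4 and 3 members in these comparisons, beside 12.7%, 16% and 1.74% of all genes, and in the last of them the same 3 genes. Libraries did not overlap for 0, 1 and 3 members as deposited (7%, 7.3% and 7.28% of all genes) and for 3, 6 and 4 rescaled (17.3%, 16.7% and 10.2%).

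**Figure D2:**
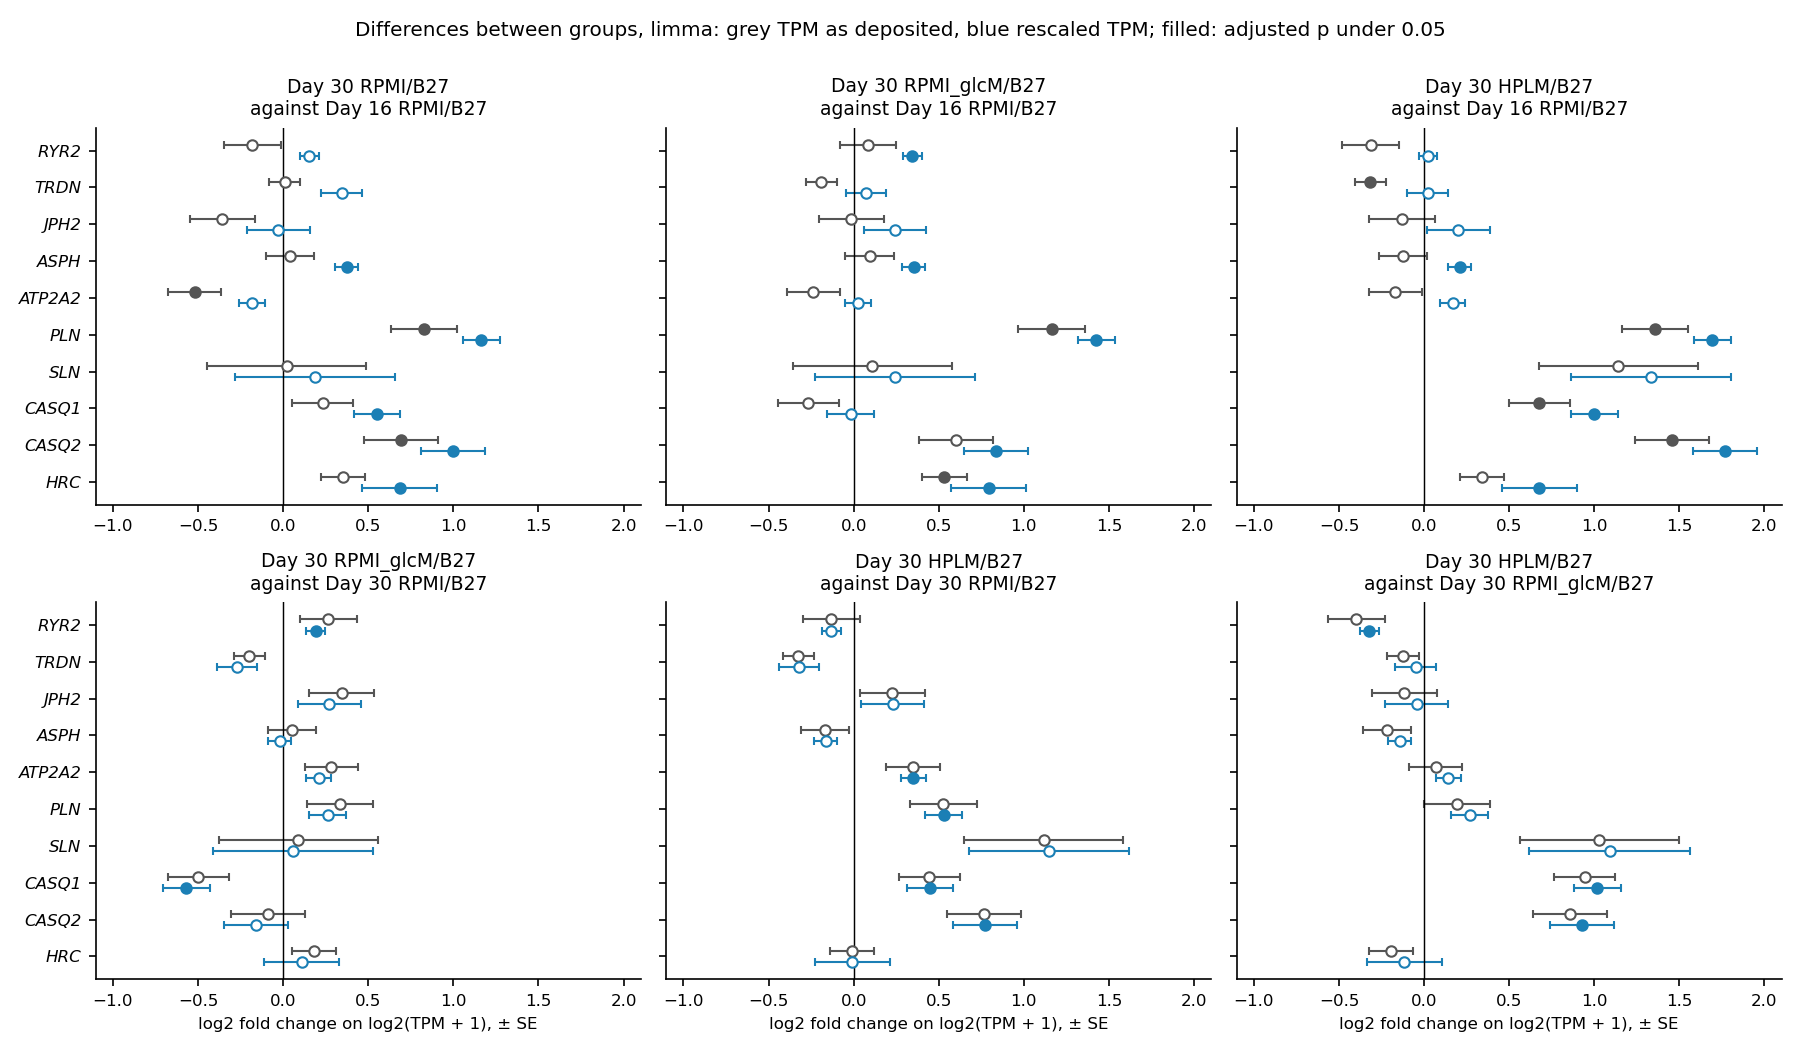
Log2 difference ± SE (horizontal axes) for each of the 10 genes in the 6 comparisons, grey as deposited and blue after rescaling, filled where the limma adjusted p is under 0.05. In HPLM/B27 against RPMI_glcM/B27 the rescaled differences of CASQ1 (1.02) and CASQ2 (0.93) lie to the right of 0 and that of RYR2 (-0.32) to the left.

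PLN, the brake on the calcium pump, had the largest read support of the members, with 16083 to 67653 reads per library. The Day 16 libraries held 1452, 1743, 1478 and 1339 TPM (1503 ± 171, SD, n = 4). RPMI/B27 held 3715, 3584, 1774 and 2106 TPM (2795 ± 997), RPMI_glcM/B27 3506, 3495, 3495 and 2943 TPM (3360 ± 278), and HPLM/B27 3310, 4105, 4390 and 3598 TPM (3851 ± 487). Every Day 30 library lay above every Day 16 library, and the low pair in RPMI/B27 was replicates 3 and 4, the libraries with the most RNR1. The log2 difference from Day 16 was 0.83 ± 0.20 (SE) for RPMI/B27, 1.16 for RPMI_glcM/B27 and 1.35 for HPLM/B27, with limma adjusted p of 0.00865, 0.000551 and 0.000163. Rescaled, these were 1.17, 1.43 and 1.69, with adjusted p of 3.7e-06, 3.26e-07 and 6.11e-08. Without both high-RNR1 libraries the RPMI/B27 difference was 1.29 as deposited (adjusted p = 3.84e-05).

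Among the Day 30 media, PLN was 1.38 times as high in HPLM/B27 as in RPMI/B27 by mean TPM, and the libraries overlapped (log2 difference 0.53, adjusted p = 0.191). Rescaled, HPLM/B27 held 3709, 4068, 4632 and 4000 TPM and RPMI/B27 3218, 3055, 2251 and 2916 TPM, which did not overlap (0.53 ± 0.11, adjusted p = 0.00486). Without both high-RNR1 libraries the rescaled difference was 0.38 (adjusted p = 0.0119) and the deposited one 0.07 (adjusted p = 0.719). The rescaled libraries of HPLM/B27 and RPMI_glcM/B27 did not overlap, but the difference of 0.27 (95% interval 0.04 to 0.50) did not pass (adjusted p = 0.27).

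ATP2A2, the pump itself, ran the other way from PLN against Day 16 as deposited. Among the Day 30 media, the means of both genes were lowest in RPMI/B27 and highest in HPLM/B27. The Day 16 libraries held 477.6, 508.2, 500.8 and 420.7 TPM (477 ± 39.6) and the RPMI/B27 libraries 420.0, 397.3, 316.6 and 228.4 TPM (341 ± 87.0), all below Day 16. This was a log2 difference of -0.52 ± 0.16 (adjusted p = 0.0291). The call was lost without any of Day 16 replicates 1, 2 and 3 or RPMI/B27 replicates 3 and 4 (adjusted p 0.0669 to 0.0775), and without both high-RNR1 libraries the difference was -0.22 (adjusted p = 0.261). RPMI_glcM/B27 averaged 405 ± 42.2 TPM and HPLM/B27 424 ± 37.8 TPM, neither of which passed against Day 16 (adjusted p of 0.306 and 0.434).

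Rescaled, ATP2A2 was 424.6, 425.9, 496.4 and 462.1 TPM in HPLM/B27 and 363.8, 338.7, 401.7 and 316.2 TPM in RPMI/B27. The groups did not overlap and the log2 difference was 0.35 ± 0.07 (adjusted p = 0.0064), held in all 8 sets with a library left out. Without both high-RNR1 libraries the rescaled difference was 0.36 (adjusted p = 0.00589) and the deposited one 0.05 (adjusted p = 0.779). Against RPMI_glcM/B27, HPLM/B27 differed by 0.14 rescaled (95% interval -0.02 to 0.30, adjusted p = 0.424).

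SLN, the pump inhibitor of atrium and skeletal muscle, was close to the limit of detection. Its reads were 4, 5, 1 and 1 on Day 16, 0, 13, 1 and 6 in RPMI/B27, 0, 5, 5 and 2 in RPMI_glcM/B27 and 11, 5, 12 and 16 in HPLM/B27. A count of 0 allows up to 3 reads, which was 1.13 TPM in the RPMI/B27 library and 1.04 TPM in the RPMI_glcM/B27 library. In TPM, HPLM/B27 held 3.192, 1.533, 3.224 and 5.429, and the other groups reached at most 3.325. The differences of 1.14 against Day 16, 1.12 against RPMI/B27 and 1.03 against RPMI_glcM/B27 on the log2(TPM + 1) scale did not pass (adjusted p of 0.0825, 0.257 and 0.744), and neither did the rescaled ones (0.0509, 0.129 and 0.316). Fitted on the pair of groups alone, the difference from Day 16 passed (adjusted p = 0.0282), as it did rescaled without HPLM/B27 replicate 2 (adjusted p = 0.0321), and with so few reads SLN stayed uncertain. The limit from a count of 0 covers counting error only.

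CASQ2, the calcium buffer of the cardiac store, was a low transcript with 86 to 456 reads per library. The Day 16 libraries held 11.3, 7.945, 12.4 and 11.49 TPM (10.8 ± 1.95). RPMI/B27 held 24.19, 21.94, 14.83 and 12.68 TPM (18.4 ± 5.53), RPMI_glcM/B27 14.57, 22.47, 14.78 and 15.87 TPM (16.9 ± 3.74), and HPLM/B27 27.45, 33.92, 23.76 and 41.34 TPM (31.6 ± 7.72). All Day 30 libraries lay above all Day 16 libraries, and HPLM/B27 lay above RPMI_glcM/B27 throughout and overlapped RPMI/B27 by 1 library.

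Against Day 16 the log2 difference of CASQ2 was 1.46 ± 0.22 in HPLM/B27 (adjusted p = 0.000227), and it passed in all 9 alternative analyses of the full set of libraries. In RPMI/B27 it was 0.69 ± 0.22 (adjusted p = 0.0356). That call was lost without any of Day 16 replicates 1, 2 and 3 or RPMI/B27 replicates 1 and 2 (adjusted p 0.0517 to 0.108), while without both high-RNR1 libraries it was 1.04 (adjusted p = 0.00938). In RPMI_glcM/B27 it was 0.60 (adjusted p = 0.0601). Rescaled, all 3 passed, at 1.00 for RPMI/B27 (adjusted p = 0.00185), 0.84 for RPMI_glcM/B27 (0.00395) and 1.77 for HPLM/B27 (8.06e-06).

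HPLM/B27 held 1.87 times the CASQ2 of RPMI_glcM/B27 by mean TPM. The deposited log2 difference of 0.85 did not pass (95% interval 0.39 to 1.32, adjusted p = 0.197). Rescaled it was 0.93 ± 0.19 (adjusted p = 0.0219), and it was lost without RPMI_glcM/B27 replicate 1 or 3 or HPLM/B27 replicate 4 (adjusted p 0.0681 to 0.0731). Against RPMI/B27 the rescaled difference was 0.77 (adjusted p = 0.0146) in libraries that did not overlap, and without both high-RNR1 libraries it was 0.71 rescaled (adjusted p = 0.0777) and 0.41 as deposited (adjusted p = 0.191).

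CASQ1, the skeletal muscle calsequestrin, was measured with 104 to 348 reads per library and differed most between HPLM/B27 and RPMI_glcM/B27. The Day 16 libraries held 20.93, 16.08, 23.54 and 20.64 TPM (20.3 ± 3.10) and RPMI/B27 26.54, 34.22, 21.26 and 16.58 TPM (24.6 ± 7.57). RPMI_glcM/B27 was tight and low at 16.16, 16.24, 17.41 and 16.44 TPM (16.6 ± 0.579). HPLM/B27 was high at 32.35, 40.31, 28.3 and 31.18 TPM (33.0 ± 5.14), above every library of Day 16 and of RPMI_glcM/B27. Beside this skeletal gene, the skeletal muscle marker list above held MYOG and TNNT3 at low mean levels and MYOD1, MYF5 and MYF6 at 0, and their part in the CASQ1 values was not tested.

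The log2 difference of CASQ1 between HPLM/B27 and Day 16 was 0.68 ± 0.18 (adjusted p = 0.0123) and 1.00 rescaled (adjusted p = 8.1e-05). From RPMI_glcM/B27 to HPLM/B27 it was 0.94 ± 0.18, with a 95% interval of 0.56 to 1.32 and an adjusted p of 0.0569. Rescaled it was 1.02 ± 0.14 (adjusted p = 0.00172), held in all 8 sets with a library left out, and over the 9 alternative analyses the adjusted p ran from 0.000689 to 0.0989 and passed in 6. RPMI_glcM/B27 was below RPMI/B27 by 0.57 rescaled (log2 difference -0.57, adjusted p = 0.0146), and without both high-RNR1 libraries it was -0.60 rescaled (adjusted p = 0.0507) and -0.83 as deposited (adjusted p = 0.00773). It passed as deposited without RPMI/B27 replicate 4 alone (adjusted p = 0.0412). HPLM/B27 exceeded RPMI/B27 by 0.45 rescaled (adjusted p = 0.0443), a call lost without any of RPMI/B27 replicates 1 and 4 or HPLM/B27 replicates 1, 2 and 4 (0.0798 to 0.117). Without both high-RNR1 libraries it was 0.42 rescaled (adjusted p = 0.138) and 0.12 as deposited (adjusted p = 0.612).

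HRC, which binds calcium in the store, held 137.4, 167.8, 130.1 and 157.7 TPM on Day 16 (148 ± 17.5). RPMI/B27 held 181.7, 162.9, 200.2 and 211.9 TPM (189 ± 21.5), RPMI_glcM/B27 193.9, 216.5, 210.3 and 237.1 TPM (214 ± 17.9), and HPLM/B27 223.4, 165.1, 158.9 and 208.1 TPM (189 ± 31.7). RPMI_glcM/B27 lay wholly above Day 16 (0.53 ± 0.13, adjusted p = 0.00796), and that call held in all 8 sets with a library left out. The other media overlapped Day 16 by 1 or more libraries and were higher by 0.35 and 0.34 (adjusted p of 0.0663 and 0.0641). Rescaled, these passed at 0.69 and 0.68 (adjusted p of 0.0436 and 0.0353), and each was lost in 5 of 8 sets with a library left out (adjusted p up to 0.140 and 0.101): without Day 16 replicate 1, 2 or 3, and without RPMI/B27 replicate 3 or 4 or HPLM/B27 replicate 1 or 4. Without both high-RNR1 libraries the rescaled RPMI/B27 difference was 0.25 (adjusted p = 0.447). No comparison among the media passed, with HPLM/B27 against RPMI/B27 at -0.01 (95% interval -0.29 to 0.26).

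**Figure D3:**
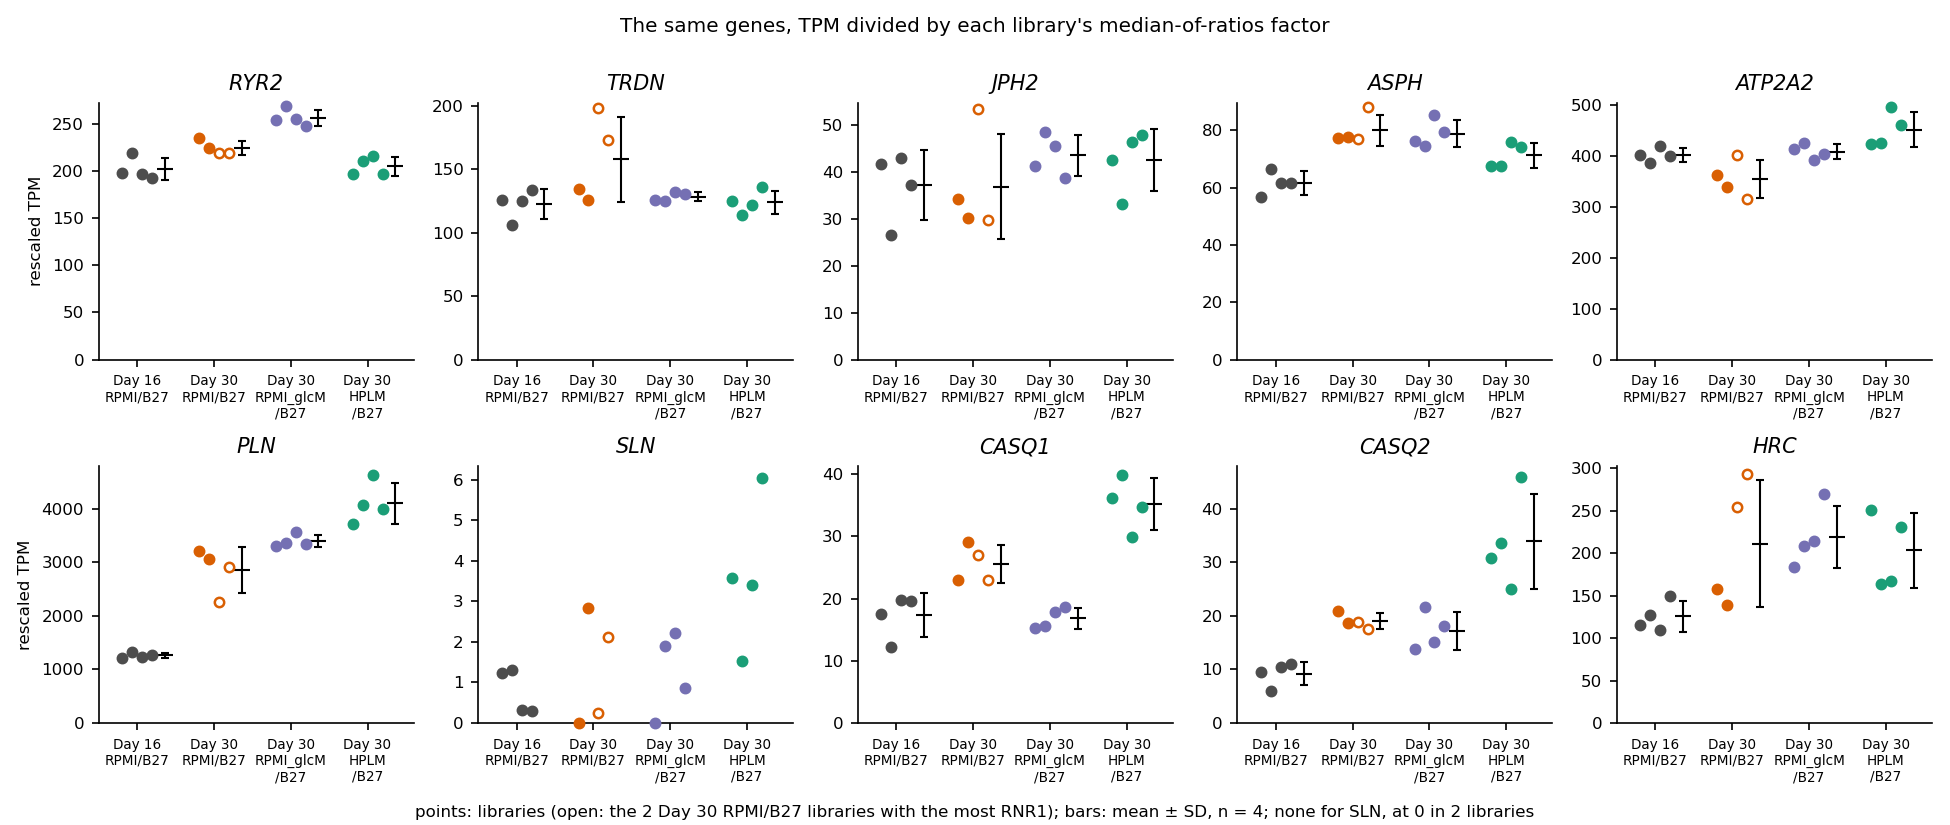
The same 10 genes after each library's TPM were divided by its median-of-ratios factor (vertical axes, linear, from 0), with mean ± SD (n = 4) beside the points except for SLN. CASQ1 sits at 29.9 to 39.9 rescaled TPM in HPLM/B27 against 15.3 to 18.7 in RPMI_glcM/B27, and RYR2 at 196 to 216 against 248 to 268.

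RYR2, the release channel, was the third most abundant member. The Day 16 libraries held 235.4, 288.3, 234.6 and 202.4 TPM (240 ± 35.6), RPMI/B27 271.4, 262.3, 172.2 and 158.2 TPM (216 ± 59.1), RPMI_glcM/B27 268.6, 278.7, 249.5 and 218.0 TPM (254 ± 26.7) and HPLM/B27 175.0, 212.0, 204.6 and 176.8 TPM (192 ± 19.0). HPLM/B27 lay below RPMI_glcM/B27 in every library, by a log2 difference of -0.40 ± 0.17 (95% interval -0.75 to -0.05, adjusted p = 0.691). Rescaled, the values were 196.1, 210.1, 215.9 and 196.5 TPM in HPLM/B27 and 253.8, 268.3, 254.6 and 247.8 TPM in RPMI_glcM/B27. The groups stayed apart, the difference was -0.32 ± 0.06 (adjusted p = 0.00772), and it passed in all 8 sets with a library left out.

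Against Day 16, rescaled RYR2 was higher by 0.35 in RPMI_glcM/B27 (adjusted p = 0.000304) and differed by 0.02 in HPLM/B27 (95% interval -0.10 to 0.14). RPMI_glcM/B27 exceeded RPMI/B27 by 0.19 rescaled (adjusted p = 0.0359). This call was lost in 7 of 8 sets with a library left out (adjusted p 0.0529 to 0.107), all but the set without RPMI/B27 replicate 1, and without both high-RNR1 libraries it was 0.16 (adjusted p = 0.142). In HPLM/B27 against RPMI/B27 RYR2 differed by -0.13 on both scales (adjusted p of 0.79 and 0.142). Without both high-RNR1 libraries it differed by -0.48 as deposited (adjusted p = 0.025), where 20.9% of all genes passed. Rescaled, that difference was -0.16 (adjusted p = 0.115).

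Triadin, which anchors calsequestrin to the channel, held 149.7, 139.9, 148.8 and 140.6 TPM on Day 16 (145 ± 5.22) and 111.4, 115.0, 115.7 and 122.3 TPM in HPLM/B27 (116 ± 4.51). The groups did not overlap, at a log2 difference of -0.32 ± 0.09 (adjusted p = 0.0209). That call was lost without Day 16 replicate 1 or 3 or HPLM/B27 replicate 1 (adjusted p 0.0582 to 0.0618), and the difference turned to 0.021 after rescaling (adjusted p = 0.924). RPMI/B27 averaged 146 ± 14.6 TPM and RPMI_glcM/B27 127 ± 8.16 TPM. TRDN was lower in HPLM/B27 than in RPMI/B27 by the same -0.32 on both scales without passing (adjusted p of 0.0823 and 0.0887). As deposited it passed without both high-RNR1 libraries (-0.38, adjusted p = 0.00608), where 20.9% of all genes passed. It also passed as deposited without RPMI/B27 replicate 4 alone (adjusted p = 0.012). Rescaled, the TRDN difference without both high-RNR1 libraries was -0.07 (adjusted p = 0.649). Without RPMI/B27 replicate 2 alone the rescaled difference passed (-0.42, adjusted p = 0.0289). TRDN overlaps the antisense transcript TRDN-AS1 (mean 46.5 TPM), and whether reads were counted by strand is not given in the sources used here.

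JPH2, the junction tether, passed in no comparison on either scale, with 861 to 2223 reads per library. Its means were 43.7 ± 7.89, 34.6 ± 9.17, 43.2 ± 6.78 and 39.6 ± 4.91 TPM on Day 16 and in the standard, lower-glucose and plasma-like media, and the largest deposited log2 difference was -0.36 ± 0.19, between RPMI/B27 and Day 16.

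ASPH, whose products include junctin and an aspartyl hydroxylase that a sum per gene cannot separate, held 73.3 ± 10.3, 76.2 ± 16.3, 77.9 ± 5.97 and 66.7 ± 4.87 TPM in the same order and passed nowhere as deposited. Rescaled, the Day 16 libraries held 56.58, 66.62, 61.56 and 61.45 TPM, below all Day 30 libraries, of which RPMI/B27 ran from 76.8 to 88.1, RPMI_glcM/B27 from 74.6 to 85.2 and HPLM/B27 from 67.4 to 76.0 TPM. The rescaled differences from Day 16 were 0.37, 0.35 and 0.21 (adjusted p of 0.00138, 0.00129 and 0.0353). The one in HPLM/B27 was lost without Day 16 replicate 1, 3 or 4 or HPLM/B27 replicate 3 or 4 (adjusted p 0.0668 to 0.113), and as deposited ASPH in HPLM/B27 stood at -0.13 against Day 16. In HPLM/B27 against RPMI/B27 ASPH passed as deposited only without both high-RNR1 libraries (-0.43, adjusted p = 0.0219), where 20.9% of all genes passed. Rescaled, that difference was -0.12 (adjusted p = 0.328).

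Ratios of members within a library do not depend on how libraries are scaled. Their size depends on the gene lengths behind TPM, whose source is not given, so only changes between groups are read. The ratio of PLN to ATP2A2 TPM, inhibitor against pump, averaged 3.15 ± 0.209 on Day 16 with all libraries between 2.95 and 3.43. It was 8.84, 9.02, 5.60 and 9.22 in RPMI/B27 (8.17 ± 1.72), 7.91 to 9.08 in RPMI_glcM/B27 (8.32 ± 0.529) and 8.66 to 9.55 in HPLM/B27 (9.07 ± 0.441). Day 16 was separate from each Day 30 medium, at folds of 2.55, 2.64 and 2.88 (exact permutation test, two-sided, p = 0.0286 each). This is the smallest p that 4 libraries against 4 allow, and over the 24 ratio comparisons it adjusts to 0.0762, so none of the 9 at that limit passed the correction. HPLM/B27 against RPMI_glcM/B27 was 1.09 (exact p = 0.0857) and HPLM/B27 against RPMI/B27 1.13 (exact p = 0.486).

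CASQ1 per CASQ2 was 1.89 ± 0.0973 on Day 16 (1.80 to 2.02), 1.35 ± 0.197 for RPMI/B27, 1.01 ± 0.201 for RPMI_glcM/B27 and 1.08 ± 0.216 for HPLM/B27, with all Day 30 libraries below all Day 16 libraries at folds of 0.708, 0.526 and 0.560 (exact p = 0.0286 each, adjusted 0.0762). HPLM/B27 and RPMI_glcM/B27 did not separate by this ratio (exact p = 0.457). RYR2 per ATP2A2 was 0.425 to 0.493 in HPLM/B27 (0.454 ± 0.0305), below all libraries of RPMI/B27 (0.544 to 0.693) and RPMI_glcM/B27 (0.613 to 0.648) at folds of 0.716 and 0.723 (exact p = 0.0286 each, adjusted 0.0762). It overlapped Day 16 (0.468 to 0.567, exact p = 0.143). SLN per 1000 PLN averaged 0.624 on Day 16, 0.440 with RPMI/B27, 0.361 with RPMI_glcM/B27 and 0.895 with HPLM/B27, and no comparison of it gave an exact p under 0.114.

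**Figure D4:**
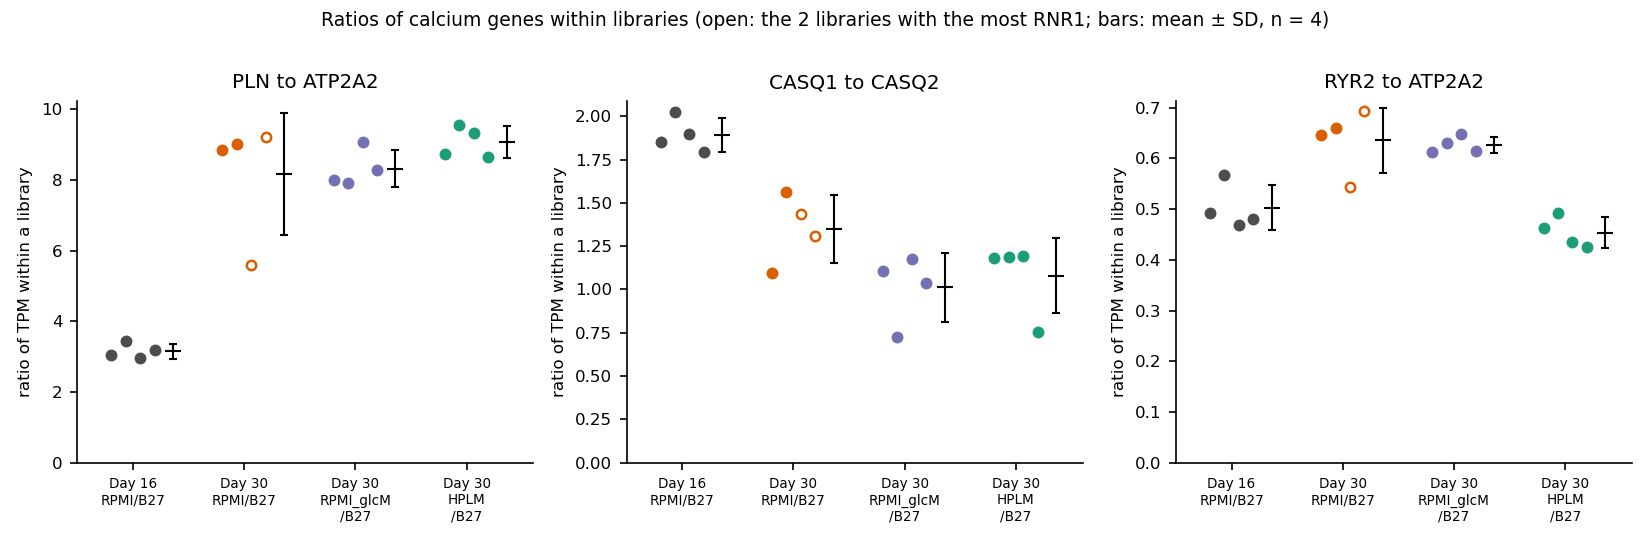
Ratios of TPM within each library (vertical axes, linear, from 0) for PLN to ATP2A2, CASQ1 to CASQ2 and RYR2 to ATP2A2, with mean ± SD (n = 4) and the high-RNR1 libraries open. PLN to ATP2A2 is 2.95 to 3.43 on Day 16 and 5.60 to 9.55 on Day 30, and RYR2 to ATP2A2 is lower in HPLM/B27 than in the other Day 30 media.

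The members were set against 64 other genes of calcium release, pumping, storage, junction building and surface transport, of which 53 passed the filter. As deposited, 5 rose and 19 fell in RPMI/B27 against Day 16, 6 rose and 14 fell in RPMI_glcM/B27, and 6 rose and 14 fell in HPLM/B27, where 2.08%, 3.34% and 3% of all genes rose and 17.8%, 17.8% and 22.4% fell. Rescaled these became 17 and 5, 15 and 13, and 17 and 9, beside 8.62%, 13.4% and 12.9% of all genes that rose and 8.91%, 14.2% and 12.5% that fell, so the balance of directions followed the scaling. Among the 9 pump regulators tested, 2 rose and 2 fell in HPLM/B27 as deposited and 5 rose and 1 fell rescaled. Among the 13 partners of the release channels, 1 rose and 6 fell as deposited and 2 rose and 4 fell rescaled.

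Genes of this list that moved in the same direction on both scales included 2 tied to the phosphatase that acts on phospholamban. PPP1R1A, an inhibitor of protein phosphatase 1, rose by 0.82 in RPMI/B27 (adjusted p = 0.00069) and 1.25 in RPMI_glcM/B27 (adjusted p = 9.39e-06). PPP1R3A, a subunit that targets the same phosphatase to glycogen and the sarcoplasmic reticulum, rose by 1.29 in RPMI_glcM/B27 and 1.40 in HPLM/B27 (adjusted p of 0.00011 and 5.32e-05). CAMK2B, a calcium-activated kinase subunit, rose by 0.95 in RPMI/B27 from 1.99 to 4.88 TPM (adjusted p = 0.00251). LRRC10, a cardiac leucine-rich repeat protein, was 179 TPM in HPLM/B27 against 70.6 TPM on Day 16 (1.36, adjusted p = 0.000773). It averaged 111 TPM in RPMI/B27 and 147 TPM in RPMI_glcM/B27. By mean TPM, PPP1R1A, PPP1R3A and CAMK2B also lay above Day 16 in every Day 30 medium, so the media named are not the only ones.

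On the other side, BIN1, which shapes the transverse tubule membrane, fell by 0.95, 1.28 and 1.28 on the log2 scale in the standard, lower-glucose and plasma-like media (adjusted p of 0.00423, 0.000284 and 0.000293). SELENON, a selenoprotein of the reticulum, fell by 0.87, 1.13 and 1.04 (adjusted p of 0.00337, 0.000284 and 0.000569). Calreticulin (CALR), the calcium buffer of the endoplasmic reticulum, was 501 TPM in HPLM/B27 against 1139 TPM on Day 16 (-1.21, adjusted p = 0.000463). CALR averaged 671 TPM in RPMI/B27 and 550 TPM in RPMI_glcM/B27. Sorcin (SRI), which binds RYR2, fell by 0.94 in RPMI_glcM/B27 (adjusted p = 0.00102). SRI averaged 36.3 TPM on Day 16, 22.3 TPM in RPMI/B27, 18.4 TPM in RPMI_glcM/B27 and 18.2 TPM in HPLM/B27. ATP2B1, a calcium pump of the surface membrane, fell by 0.69 in RPMI/B27 (adjusted p = 0.00606). All of these stayed lower after rescaling. BIN1 averaged under 8 TPM in all groups.

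Among the Day 30 media, TMEM38A was the only gene of the list that passed as deposited. It encodes TRIC-A, a potassium channel of the sarcoplasmic reticulum that balances charge during calcium release. It averaged 12.4 TPM in RPMI/B27, 21.1 TPM in RPMI_glcM/B27 and 23.5 TPM in HPLM/B27, with Day 16 at 20.04 TPM. The log2 difference from RPMI/B27 was 0.77 ± 0.19 in RPMI_glcM/B27 (adjusted p = 0.0476) and 0.90 in HPLM/B27 (adjusted p = 0.02), and rescaled 0.71 and 0.91 (adjusted p of 0.00164 and 0.000202). The deposited call in RPMI_glcM/B27 was lost when all genes above 0 were tested (adjusted p = 0.0874) and without both high-RNR1 libraries (0.41, adjusted p = 0.141, against 0.63 and 0.0198 rescaled). It was also lost without RPMI/B27 replicate 3 or 4 or any RPMI_glcM/B27 library (adjusted p 0.0867 to 0.135). The call in HPLM/B27 was lost without RPMI/B27 replicate 3 or HPLM/B27 replicate 2, 3 or 4 (adjusted p 0.0533 to 0.0838), and without both high-RNR1 libraries it was 0.54 (adjusted p = 0.0446). Fitted on the pair of groups alone, neither passed (adjusted p of 0.198 and 0.150). Rescaled, 6 genes of the list rose and 6 fell in RPMI_glcM/B27 against RPMI/B27, 8 rose and 2 fell in HPLM/B27 against RPMI/B27, and 1 rose (CALU) and 1 fell (PPP1R1A) in HPLM/B27 against RPMI_glcM/B27.

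The paralogs of the members were mostly low. RYR1 and RYR3 averaged 0.323 and 0.913 TPM over all libraries and ATP2A3 0.640 TPM, all under the filter, and ATP2A1, the skeletal muscle pump, averaged 1.17 to 2.12 TPM by group. JPH1 was at 30.8 to 41.4 TPM, near the level of JPH2. Of the micropeptides related to phospholamban, C4orf3 (another-regulin) was at 58.8 to 69.9 TPM by group, and passed in all 3 Day 30 media against Day 16 after rescaling, at 0.34, 0.50 and 0.46. MRLN (myoregulin) averaged 0.114 TPM and SMIM6 (endoregulin) 0.323 TPM, and STRIT1 was not analysed here.

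**Figure D5:**
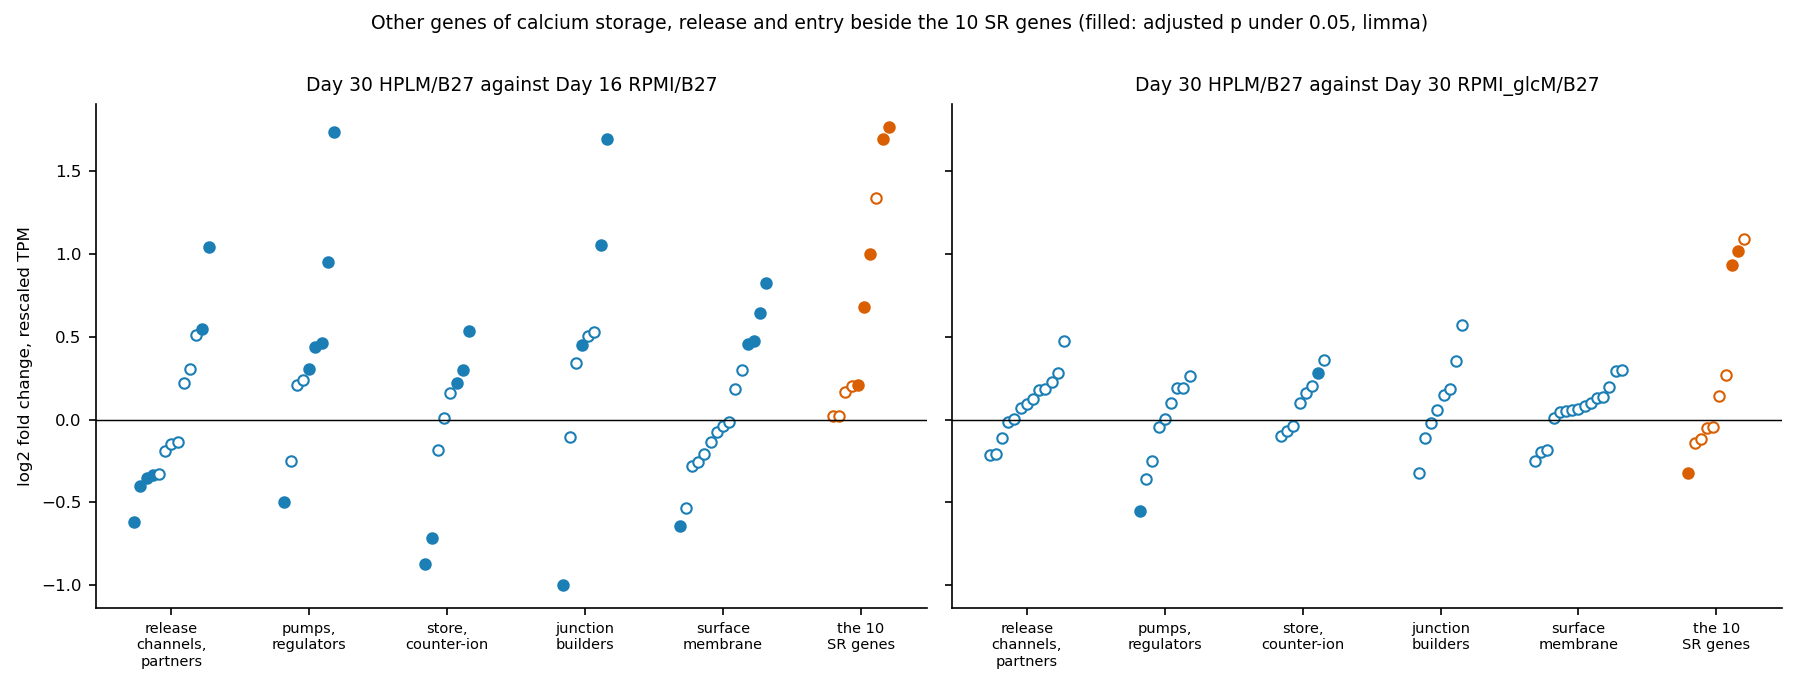
Rescaled log2 differences of the 53 other calcium genes tested, grouped by role, in HPLM/B27 against Day 16 and in HPLM/B27 against RPMI_glcM/B27 (vertical axis), with the 10 members beside them in orange, filled where the limma adjusted p is under 0.05. Against Day 16, 17 of the blue points are filled above 0 and 9 below, and between the media 1 on each side.

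Genes whose TPM followed a member most closely over the 16 libraries were found among 6824 genes averaging 10 TPM or more, by the root-mean-square difference of centred log2(TPM + 1). For PLN these were PPP1R3A (0.126), ABCC9, the sulfonylurea receptor subunit of the cardiac potassium channel (0.126), and LRRC10 (0.164). For CASQ2 they were CSRP3, a muscle LIM protein (0.295), FGF1 (0.323) and CYP2J2 (0.325), and for CASQ1 TMEM71 (0.264), SSPN, or sarcospan (0.267), and KIFAP3 (0.271). RYR2 was followed by KANSL2, XYLT2 and RPL7 (0.0777 to 0.0811) and ATP2A2 by MRS2, CLOCK and NAA40 (from 0.0703). The same libraries and their scaling enter both sides of each value, which is a description without a test. The nearest genes of TRDN were SNAP29, DEK and RSRC1, of JPH2 POPDC2, FRMD3 and ASCC2, of HRC SAFB2, SYF2 and GOLGA4, and of ASPH BARD1, TDP2 and KDM4C.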

How the data were processed

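RNA was extracted from 16 wells and made into stranded total RNA libraries, which the authors sequenced, aligned to hg38 with decoy sequences with STAR 2.5.3a and counted per gene with featureCounts 2.0.3, with R 4.1.3 among the tools of the submitters' processing notes. The authors deposited TPM for 43388 genes. The annotation, gene lengths, TPM tool and strand setting are not given in the sources used here. The authors' own DESeq2 comparisons were not used.

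The 16122 genes averaging 1 TPM or more were compared on log2(TPM + 1), so fold changes of low genes are understated, with limma 3.58.1 in R 4.3.3 (lmFit, eBayes with a trend) over all 4 groups, in 6 comparisons, with Benjamini-Hochberg adjustment over all genes and a threshold of 0.05. Intervals are 95% and n is 4 wells per group. Whole reads were recovered from the TPM steps by taking, for each gene, the smallest length that made its values whole. Such a length was found for all 31047 genes above 0 (largest deviation 0.00054 reads). Wholeness was the criterion of this fit, so it is not a separate check of the reads. In the recovered reads, 1 read per 1000 bases was worth 0.139 to 0.314 TPM. These reads entered limma-voom as an alternative (genes averaging 10 reads or more). Other alternatives were a pseudocount of 0.1, all genes above 0, a minimum mean of 5 TPM and median-of-ratios rescaling. In a further one, mitochondrial, ribosomal RNA and RN7SK genes were left out and every library was scaled to the same total. The rest were a fit of only the groups compared, a replicate block, RNR1 as a covariate and leaving out each library. Leaving out both high-RNR1 libraries on either scale, and leaving out each library after rescaling, were chosen after seeing the data.

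The members, the 64 other calcium genes and the marker lists were chosen with earlier results of these data known. Named genes are the members, up to 5 list genes per comparison with the smallest adjusted p among those that passed without overlap, named paralogs and micropeptides, and the 3 nearest genes per member, apart from those of SLN, whose reads are few. The promoters, CKM, MYOG, TNNT3 and the called genes CALU and PPP1R1A were named after values were seen. The rule asked for promoters of members called among the Day 30 media, of which the deposited values gave none. Ratios were compared as log2 ratios by exact permutation tests, except SLN to PLN, compared on the linear scale because SLN was at 0 in 2 libraries. Positions and promoters came from RefSeq on GRCh38.p14. On simulated data for HPLM/B27 against RPMI_glcM/B27, limma found 189 of 191 genes changed by a log2 fold of 1.5 among 14169 genes, with 10 false calls. The simulation used the same spread for every gene, no RNR1 differences between libraries and no smaller folds. It therefore checks the code and does not measure power or error for the differences reported here. Python 3.11.15, numpy 2.4.6 and pandas 2.3.3 were used.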

Additional observations from a re-analysis of the deposited data

Results flagged for a closer look

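In 56 groups of 4 libraries (10 genes and 4 ratios in each of 4 groups), 4 had a library whose gap to the nearest other exceeded Dixon's 95% critical value for the group's range, and chance alone gives about 1 in 20. PLN was lowest in Day 30 RPMI_glcM/B27 replicate 4, at 2943 TPM against 3495 to 3506 TPM in the other libraries of that group. CASQ2 was highest in RPMI_glcM/B27 replicate 2, at 22.5 TPM against 14.6 to 15.9 TPM. The ratio of PLN to ATP2A2 was lowest in RPMI/B27 replicate 3, at 5.60 against 8.84 to 9.22, and this is one of the libraries with the most RNR1. The ratio of CASQ1 to CASQ2 was lowest in HPLM/B27 replicate 4, at 0.754 against 1.18 to 1.19.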

How the results depend on the processing

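Counts below are given for RPMI/B27, RPMI_glcM/B27 and HPLM/B27 against Day 16, RPMI_glcM/B27 against RPMI/B27, HPLM/B27 against RPMI/B27 and HPLM/B27 against RPMI_glcM/B27, in that order. As deposited, the members that passed numbered 3, 2, 4, 0, 0 and 0 and the other calcium genes 24, 20, 20, 1, 1 and 0, beside 19.9%, 21.1%, 25.4%, 2.2%, 2.41% and 0.0682% of all genes. Median-of-ratios rescaling gave 5, 5, 5, 2, 4 and 3 members and 22, 28, 26, 12, 10 and 2 other genes (17.5%, 27.5%, 25.3%, 12.1%, 12.9% and 1.63% of all genes). Scaling to the same total without mitochondrial, ribosomal RNA and RN7SK genes gave 6, 3, 4, 2, 4 and 2 members and 25, 24, 25, 7, 7 and 1 other genes (17.7%, 23.9%, 22.8%, 7.37%, 8.41% and 0.696%), and limma-voom on recovered reads 7, 5, 5, 4, 4 and 3 and 27, 31, 28, 14, 10 and 2 (21.7%, 29.8%, 29.6%, 12.7%, 16% and 1.74%). RNR1 as a covariate gave 1, 2, 4, 0, 1 and 1 members and 11, 21, 20, 2, 1 and 1 other genes (8.59%, 20%, 23.8%, 4.51%, 6.85% and 0.564%), and a fit of only the groups compared 0, 3, 5, 0, 0 and 1 and 5, 28, 27, 0, 0 and 0 (6.19%, 27.7%, 36.2%, 0.279%, 0.502% and 0.205%). Testing all genes above 0 gave 1, 2, 4, 0, 0 and 0 members and 16, 20, 19, 0, 1 and 0 other genes (9.54%, 11.8%, 13.5%, 0.779%, 0.899% and 0.0322%), a minimum of 5 TPM 3, 3, 4, 0, 0 and 1 and 16, 16, 17, 1, 1 and 0 (26.7%, 23.5%, 30.7%, 3.12%, 3.63% and 0.144%), and a pseudocount of 0.1 TPM 3, 2, 4, 0, 0 and 0 and 22, 19, 20, 1, 1 and 0 (19%, 20.1%, 24.7%, 2.08%, 2.39% and 0.0868%). Without both high-RNR1 libraries the comparisons that involve RPMI/B27 gave 3, 2 and 3 members and 12, 9 and 11 other genes (9.66%, 10.4% and 20.9%), and after rescaling 4, 0 and 2 members and 19, 10 and 13 other genes (15%, 9.14% and 12.3%). The causes of these changes were not tested.

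The replicate numbers of the labels were checked for pairing. Of 24 same-numbered pairs of libraries 14 had deviations correlated above 0.1 (r from -0.24 to 0.44), most of them in replicates 2 and 4. Not every pair passed 0.1 and the labels give no shared batch, so the block is an alternative only. With a replicate block 4, 2, 5, 0, 1 and 0 members and 27, 27, 26, 3, 3 and 1 other genes passed (29.4%, 27.8%, 34.2%, 4.47%, 4.54% and 0.298% of all genes). The members gained were HRC in RPMI/B27 (adjusted p = 0.0425) and HPLM/B27 (0.0427) against Day 16 and TRDN in HPLM/B27 against RPMI/B27 (0.0422).

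With each library left out in turn, members passed in 1 to 3, 2 to 2, 3 to 5, 0 to 1, 0 to 1 and 0 to 0 of 10 cases as deposited and in 4 to 6, 5 to 5, 3 to 6, 1 to 2, 3 to 5 and 2 to 3 after rescaling. Other calcium genes ran from 8 to 23, 16 to 23, 16 to 22, 0 to 3, 0 to 2 and 0 to 0 as deposited and from 16 to 22, 21 to 25, 25 to 29, 8 to 12, 7 to 13 and 0 to 3 rescaled. The shares of all genes in these fits are not given here, so the ranges cannot be set against a background.

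Between deposited and rescaled values the sign turned for 1, 3, 5, 1, 0 and 0 members, called or not, among RYR2, ATP2A2, TRDN, JPH2 and ASPH. For 3 of these a value on either side passed the test. ASPH in HPLM/B27 was 0.21 after rescaling and 0.22 by limma-voom (-0.18 to 0.25 with a library left out), TRDN in HPLM/B27 0.021 and 0.034 (-0.34 to 0.063), and RYR2 in RPMI/B27 0.16 by limma-voom (-0.31 to 0.19). The ratio of SLN to PLN in RPMI_glcM/B27 against Day 16 reached an exact p of 0.0286 when taken as a log2 ratio of TPM + 1 (-0.63). PLN against Day 16 in RPMI/B27 passed in 8 of 9 alternatives and in the other media in 9 of 9. Depth limits SLN (0 to 16 reads) most, then CASQ2 and CASQ1. Every group is wells of 1 differentiation.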
